A study of Mus musculus with 60 samples.

Results

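The genes described here are 26 genes of inhibitory signalling, chosen by name for their role and not by any measured value, out of 46480 genes in the deposited tables. They were 13 subunits of GABA-A receptors, both subunits of the GABA-B receptor, 4 subunits of glycine receptors, the 2 enzymes that make GABA, 2 transporters of GABA, 2 proteins of the inhibitory synapse and the calcium-binding protein parvalbumin. RNA-Seq was used to measure them in whole-tissue dissections of dorsal and ventral dentate gyrus (DG), the part of the hippocampus that holds the granule cells. All mice were male C57BL6J, weaned on day 22 into standard housing (SH, 3 mice per cage) or an enriched environment (EE, 12 mice per cage), and housed so for 8 weeks, until collection on day 80. Each sample pooled tissue from several mice, and a dorsal and a ventral sample with equal replicate number and housing shared their mice. The comparisons were dorsal against ventral DG, EE against SH within each region, and the EE effect of dorsal against that of ventral DG.

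GABA is the main inhibitory transmitter of the adult brain. It opens chloride channels built from GABA-A receptor subunits, whose mix sets where the receptor sits and how it responds. Receptors at synapses mostly hold a γ subunit. Those with the δ subunit lie outside synapses and carry a lasting, tonic current that is large in granule cells. GABA-B receptors act more slowly through G proteins, and glycine receptors are chloride channels of the same superfamily as GABA-A receptors, best known from spinal cord and brainstem.

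Values are in CPM, the count of fragments on a gene relative to the size of its library, after TMM scaling that corrects for library composition. They come from 18 samples: replicates 1, 2, 4 and 5 of SH and replicates 1 to 5 of EE in each region. These libraries held 22919364 to 28301861 fragments counted on genes. The tests took in the 17040 genes that had over 10 counts in 2 or more samples. FDR is the Benjamini-Hochberg adjusted p of edgeR's quasi-likelihood test over all tested genes, and a gene was called at FDR under 0.05 with a fold change over 20%. In whole tissue, fewer cells of a type and less RNA per cell cannot be told apart. Markers of cell types differed between the regions. For comparison, 15% of all tested genes were called higher in dorsal and 15.9% in ventral DG. At FDR under 0.05 alone, these shares were 25.9% and 26.3%. Of 10 granule cell markers, 9 were called higher in dorsal and 0 in ventral DG, and their summed level was 1728 to 2084 CPM in dorsal and 915.5 to 1328 CPM in ventral samples. *Rfx3* was the most abundant of them (408 ± 23.0 against 278 ± 26.0 CPM, SD, n = 9 per region) and *Dsp* differed most (log2 fold change 1.47, SE 0.07, edgeR FDR 1.66e-13). Of 23 interneuron markers, 11 were called higher in ventral and 2 (*Npy* and *Adarb2*, named after their values were seen) in dorsal DG, with sums of 872.1 to 961.8 CPM in dorsal and 1076 to 1225 CPM in ventral samples. *Cnr1* was the most abundant (222 ± 17.4 against 289 ± 26.1 CPM) and *Calb2*, which is also a mossy cell marker in ventral hippocampus, differed most (log2 fold change -2.42, SE 0.13, edgeR FDR 1.48e-12). All 10 choroid plexus markers were higher in ventral DG, with sums of 27.7 to 216.8 CPM in dorsal and 400.8 to 1468 CPM in ventral samples, led by *Ttr* in level (40.5 ± 51.6 against 686 ± 313 CPM) and *Folr1* in difference (log2 fold change -4.31, SE 0.37). Of 9 astrocyte markers 3 were called higher in ventral DG (*Aldoc*, *Slc1a3* and *Gjb6*), none in dorsal, and the sums overlapped (6968 to 8779 CPM in dorsal, 7916 to 10940 CPM in ventral samples). The most abundant of them, *Slc1a2*, was at 5072 ± 451 against 5659 ± 614 CPM, and *Aldoc* differed most (log2 fold change -0.48, SE 0.07). Of 13 markers of pyramidal and mossy cells, 5 were called in each direction, from *Nptx1*, the most abundant (log2 fold change 0.29, SE 0.05), to *Glp1r* (-2.47, SE 0.12), and their sums overlapped (1264 to 1437 CPM in dorsal, 1197 to 1446 CPM in ventral samples). Of 7 oligodendrocyte markers 0 were called at the 20% limit, 2 passed FDR under 0.05 alone, and sums were 2151 to 3058 and 1915 to 3273 CPM. *Mbp* led them in level (1010 ± 141 against 1047 ± 213 CPM) and *Mag* in difference (log2 fold change 0.24, SE 0.07). Of 10 thalamus and habenula markers 5 were called higher in dorsal DG, with sums of 211.0 to 311.7 CPM in dorsal and 162.4 to 190.4 CPM in ventral samples. *Rora* was the most abundant (81.6 ± 11.5 against 85.7 ± 7.96 CPM) and *Pou4f1* differed most (log2 fold change 3.58, SE 0.69). No marker of any list was at 0 in all 18 samples. The part of these cell types in the region differences below was not tested.

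Of the 26 genes, 22 passed the count limit and were tested. The other 4, the GABA-A subunit genes *Gabre*, *Gabrq* and *Gabrr2* and the glycine receptor gene *Glra1*, stayed at or below 0.58 CPM in every sample. Between the regions 9 of the 22 were called, beside 30.9% of all tested genes. Of these, 3 were higher in dorsal DG (15% of all tested genes were called in that direction) and 6 in ventral DG (15.9%). Among the 6 is *Gabra6*, which passed the count limit only through 3 ventral samples, so that its call adds nothing to these counts. Without the 20% limit, 15 passed FDR under 0.05 (52.3% of all tested genes), 6 of them higher in dorsal (25.9%) and 9 in ventral DG (26.3%). For 6 of the 22, 3 in each direction, the 9 dorsal and the 9 ventral samples did not overlap, as for 18.9% of all tested genes. The median log2 fold change (dorsal over ventral, mean of SH and EE) was -0.06 over the 22 genes and -0.0046 over all 17040.

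**Figure D1:**
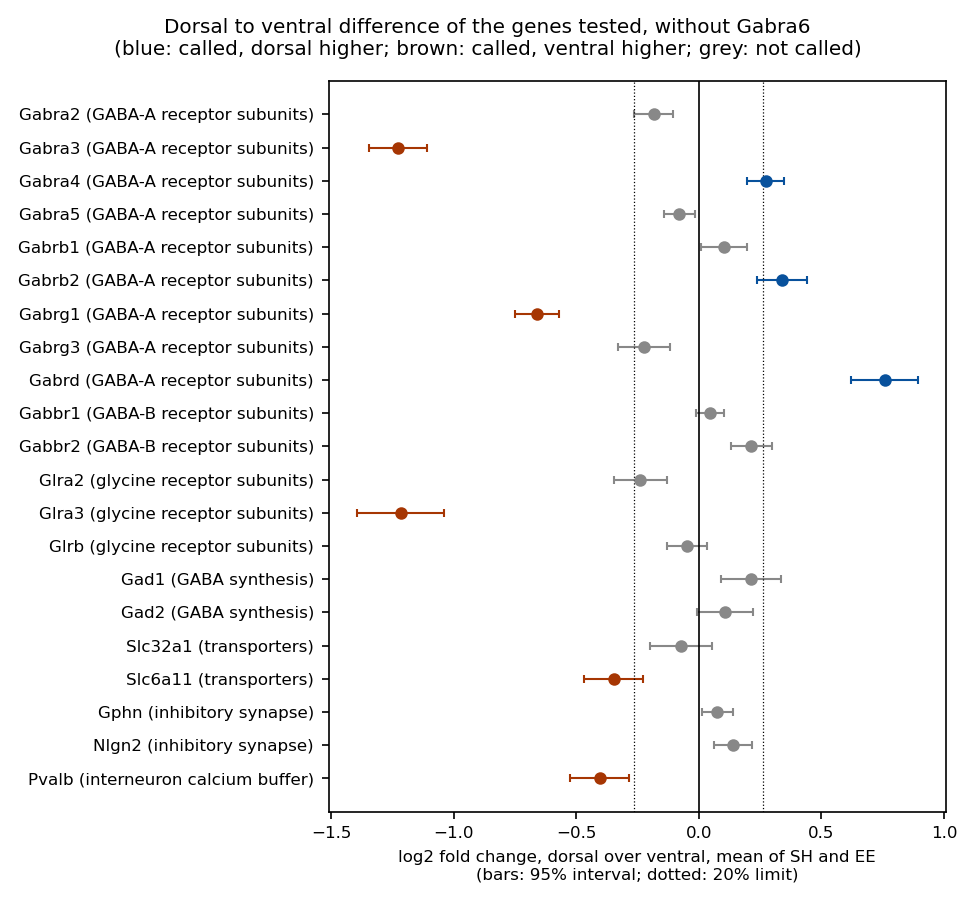
Log2 fold change of dorsal over ventral DG (mean of SH and EE, horizontal axis, with bars of the 95% interval) for the tested genes other than *Gabra6*, which was near 0 CPM in most samples. *Gabrd* lies furthest to the dorsal side (0.76) and *Gabra3* (-1.23) and *Glra3* (-1.22) furthest to the ventral side, while the genes of GABA synthesis and the GABA-B receptor lie inside the dotted 20% limits.

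The GABA-A receptor subunits were 10 of the 22 genes tested and held 6 of the 9 region calls, in both directions. Over all tested genes, 30.9% were called. *Gabrd*, *Gabrb2* and *Gabra4* were called higher in dorsal DG, and *Gabra3* and *Gabrg1* higher in ventral DG. The remaining call is that of *Gabra6*, also higher in ventral DG, which adds nothing to these counts. *Gabrd* encodes the δ subunit of extrasynaptic receptors. It measured 50.7, 61.3, 49.4 and 51.4 CPM in dorsal SH and 47.8, 64.2, 54.9, 58.8 and 57.1 CPM in dorsal EE, against 36.4, 31.9, 35.1 and 30.3 CPM in ventral SH and 28.5, 35.4, 25.8, 38.2 and 29.6 CPM in ventral EE. Every dorsal sample lay above every ventral one, with the lowest dorsal and highest ventral values both in EE. The fold was 1.69 (log2 fold change 0.76, SE 0.07, edgeR FDR 1.40e-08).

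*Gabra4* encodes the α4 subunit, the usual partner of δ in dentate granule cells. It measured 242, 256, 233 and 237 CPM in dorsal SH, 230, 228, 239, 246 and 248 CPM in dorsal EE, 223, 209, 207 and 186 CPM in ventral SH and 194, 197, 173, 203 and 190.0 CPM in ventral EE. The regions did not overlap, but the gap between dorsal EE replicate 2 and ventral SH replicate 1 was small beside the spread. The fold was 1.21 (log2 fold change 0.27, SE 0.04, edgeR FDR 9.29e-06), just past the 20% limit. Leaving out the pool of EE replicate 3, SH replicate 2 or SH replicate 5 put it within that limit (log2 fold change down to 0.255), with FDR still under 0.05.

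*Gabrb2* encodes a β subunit, a part that nearly all GABA-A receptors need. It measured 202, 186, 203 and 204 CPM in dorsal SH, 189, 186, 206, 204 and 203 CPM in dorsal EE, 141, 151, 176 and 170 CPM in ventral SH and 145, 134, 145, 177 and 168 CPM in ventral EE. All 9 pools had the higher value in dorsal DG (fold 1.27, log2 fold change 0.34, SE 0.05, edgeR FDR 2.92e-05). Another β gene, *Gabrb1*, averaged 237 ± 16.9 CPM in dorsal against 221 ± 16.0 CPM in ventral DG (SD, n = 9 each), with overlapping samples (log2 fold change 0.10, SE 0.05, edgeR FDR 0.164). The 3 subunits higher in dorsal DG had the same direction as the granule cell markers above.

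*Gabra3*, the gene of the α3 subunit, had the largest difference of the genes well above the count limit. It measured 11.2, 13.7, 13.2 and 12.5 CPM in dorsal SH, 12.9, 11.9, 12.8, 11.8 and 12.3 CPM in dorsal EE, 27.5, 31.3, 28.7 and 30.6 CPM in ventral SH and 30.7, 29.9, 31.2, 22.0 and 30.9 CPM in ventral EE. Ventral EE replicate 4 was the lowest ventral sample and still stood above all dorsal ones. The level was 2.34-fold higher in ventral DG (log2 fold change -1.23, SE 0.06, edgeR FDR 5.94e-13), and the difference was -1.23 in SH and in EE alike. *Gabrg1*, a γ subunit gene also known from glia, measured 28.9, 31.5, 30.0 and 27.0 CPM in dorsal SH, 28.0, 26.5, 25.5, 28.6 and 27.9 CPM in dorsal EE, 45.8, 50.6, 42.7 and 44.5 CPM in ventral SH and 45.7, 50.1, 39.8, 40.8 and 41.6 CPM in ventral EE. The regions were apart in every pool, by 1.58-fold (log2 fold change -0.66, SE 0.05, edgeR FDR 2.81e-10).

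The remaining α and γ subunits of the 26 genes differed less. *Gabra2*, a synaptic α subunit, was lower in dorsal DG in 9 of 9 pools (254 ± 19.1 against 289 ± 15.5 CPM, log2 fold change -0.18, SE 0.04, edgeR FDR 0.00190), within the 20% limit. *Gabrg3* averaged 13.8 ± 1.38 CPM in dorsal against 16.2 ± 1.13 CPM in ventral DG (log2 fold change -0.22, SE 0.05, edgeR FDR 0.00218), also within the limit. *Gabra5*, whose receptors lie mostly outside synapses in the hippocampus, did not pass (216 ± 8.10 against 228 ± 11.0 CPM, log2 fold change -0.08, SE 0.03, edgeR FDR 0.0556).

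**Figure D2:**
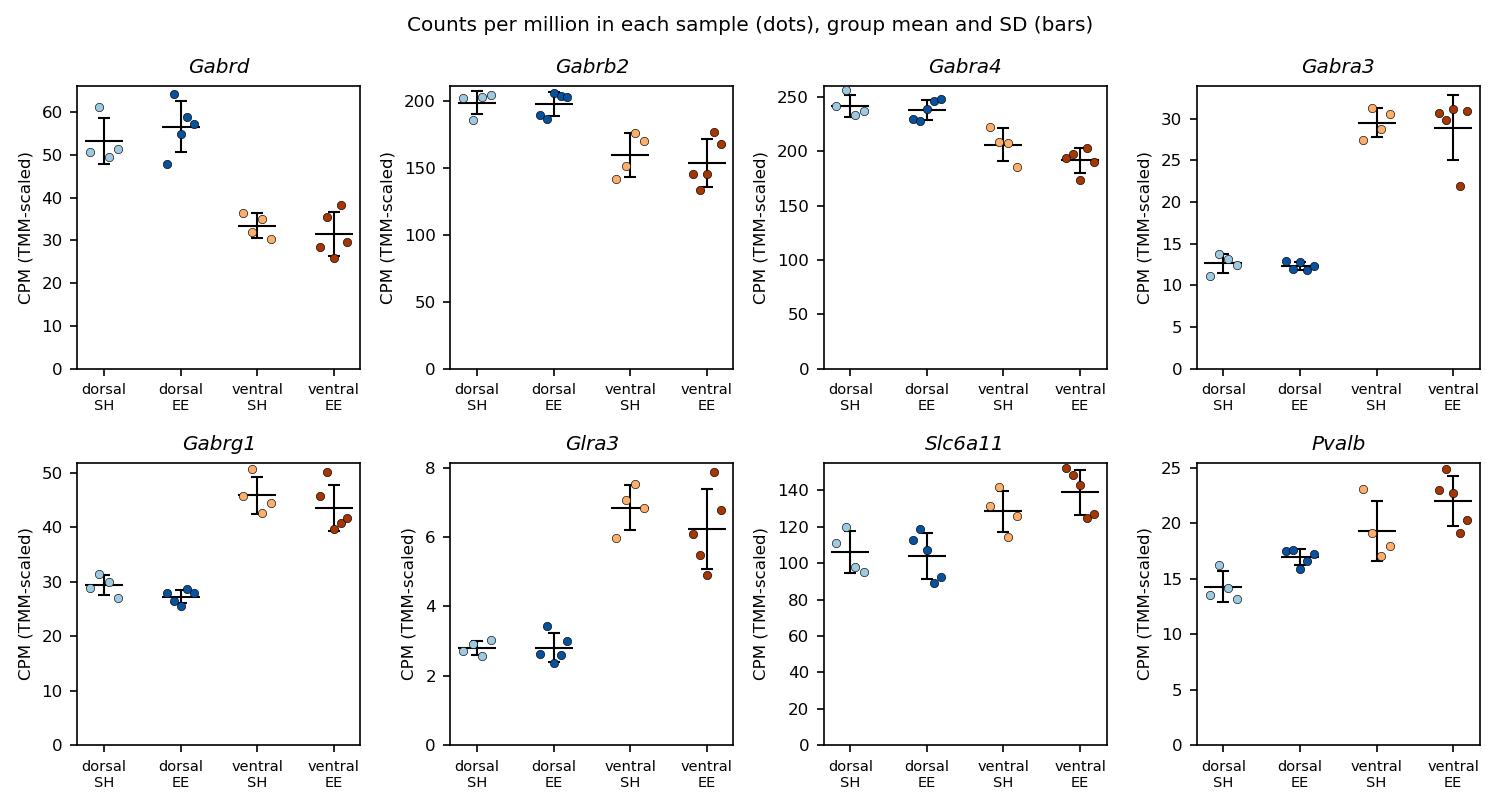
Level in CPM (vertical axis, from 0) of the 8 called genes other than *Gabra6* in each sample of the 4 groups (dots), with the group mean and SD (bars). In the top row *Gabrd*, *Gabrb2* and *Gabra4* lie higher in both dorsal groups and *Gabra3* higher in both ventral groups. For *Slc6a11* and *Pvalb* the regions come close or overlap.

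Among these subunits, 4 genes lie next to each other on chromosome 5 and did not share a direction. In order along the chromosome (mm10, gene bodies from Gencode) they are *Gabrg1* (chr5:70751047-70842617, minus strand), *Gabra2* (chr5:70957597-71095849, minus), *Gabra4* (chr5:71569749-71658308, minus) and *Gabrb1* (chr5:71658113-72149037, plus). Their log2 fold changes of dorsal over ventral in the same order were -0.66, -0.18, 0.27 and 0.10, from higher in ventral at *Gabrg1* to higher in dorsal at *Gabra4*. *Gabra4* and *Gabrb1* point in opposite directions and overlap by 196 bases at their 5′ ends, so strand-specific counts are needed to separate them. With counts that ignore strand, the log2 fold change of *Gabra4* was 0.26, within the 20% limit. Genes on other chromosomes moved by a like amount with those counts, *Gad1* from 0.212 to 0.204 and *Nlgn2* from 0.139 to 0.130. The part of the overlap in the shift of *Gabra4* was not tested. The promoters of these neighbours and of *Gabra3* are shown because they differ in content of the dinucleotide CG, the main site of DNA methylation. The sequences are from RefSeq (GRCm38.p6), 250 bases before to 50 after the transcript start, read 5′ to 3′ on the gene's strand, with each CG in capitals. *Gabrg1* is at chr5:70842568-70842867, *Gabra2* at chr5:71095800-71096099, *Gabra4* at chr5:71658259-71658558, *Gabrb1* (the first of 2 entries) at chr5:71657671-71657970 and *Gabra3* (the first of 2 entries) at chrX:72656758-72657057. All lie on the minus strand except that of *Gabrb1*.
Gabrg1: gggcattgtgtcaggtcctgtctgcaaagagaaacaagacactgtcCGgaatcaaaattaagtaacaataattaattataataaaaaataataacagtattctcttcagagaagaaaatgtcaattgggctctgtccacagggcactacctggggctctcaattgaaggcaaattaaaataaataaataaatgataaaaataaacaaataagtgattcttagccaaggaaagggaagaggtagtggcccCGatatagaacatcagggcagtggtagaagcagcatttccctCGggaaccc
Gabra2: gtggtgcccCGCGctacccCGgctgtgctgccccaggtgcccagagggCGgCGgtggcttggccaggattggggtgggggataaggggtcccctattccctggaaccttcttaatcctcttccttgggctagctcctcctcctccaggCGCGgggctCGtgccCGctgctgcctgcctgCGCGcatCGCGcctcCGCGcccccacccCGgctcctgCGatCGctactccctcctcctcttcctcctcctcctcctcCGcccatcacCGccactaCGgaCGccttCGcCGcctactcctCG
Gabra4: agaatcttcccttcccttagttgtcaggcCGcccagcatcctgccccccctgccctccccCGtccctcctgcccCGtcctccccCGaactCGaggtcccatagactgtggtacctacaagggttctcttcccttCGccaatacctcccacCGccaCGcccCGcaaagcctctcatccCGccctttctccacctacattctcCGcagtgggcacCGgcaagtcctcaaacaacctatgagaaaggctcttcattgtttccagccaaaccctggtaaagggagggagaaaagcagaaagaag
Gabrb1: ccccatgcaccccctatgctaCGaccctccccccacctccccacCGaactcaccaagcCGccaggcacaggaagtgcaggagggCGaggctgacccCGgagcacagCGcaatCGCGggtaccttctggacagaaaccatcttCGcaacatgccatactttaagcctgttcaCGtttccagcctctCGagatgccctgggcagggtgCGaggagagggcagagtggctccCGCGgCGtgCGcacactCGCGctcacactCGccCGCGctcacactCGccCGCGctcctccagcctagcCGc
Gabra3: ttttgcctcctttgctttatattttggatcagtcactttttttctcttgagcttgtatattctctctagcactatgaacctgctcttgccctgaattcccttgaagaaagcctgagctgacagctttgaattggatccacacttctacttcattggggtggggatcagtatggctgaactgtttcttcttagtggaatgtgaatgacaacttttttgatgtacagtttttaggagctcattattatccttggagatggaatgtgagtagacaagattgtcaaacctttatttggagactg

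Of the 26 genes, 24 had a promoter in this table, with 29 entries in all. The promoters of *Gabra3* and *Gabrg1*, both higher in ventral DG, held 0 and 3 CG and had a GC content of 39.3% and 38.3%. Those of *Gabra2*, *Gabra4* and *Gabrb1* held 25, 12 and 25 CG at a GC content of 70.0%, 58.7% and 66.0%. These values are of the first entry where a gene had 2. The second entries of *Gabrb1* and *Gabra3* held 9 and 0 CG at a GC content of 50.3% and 43.0%. The 29 entries had a median of 13 CG and a GC content of 60.0%, and 32851 promoters of the same length had a median of 7 CG and a GC content of 52.7%. At least 1 CG was present in 94.6% of these. Of the other genes called higher in ventral DG, *Gabra6* held 2, *Glra3* 8 and *Slc6a11* 32, and the 2 entries of *Pvalb* held 25 and 5. The count of CG in a sequence is a description and says nothing of its methylation.

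*Gabra6*, the α6 subunit of cerebellar granule cells, was called higher in ventral DG on the strength of few samples. It had 156 counts in ventral SH replicate 1, 33 in ventral EE replicate 1, 14 in ventral EE replicate 3, and 0 to 2 in each of the other 15 samples. This is 206 counts in 9 ventral libraries against 2 in 9 dorsal ones, a ratio of 102 at equal depth (exact 95% interval 28.0 to 852, for counting error only). Only those 3 ventral samples had over 10 counts, so *Gabra6* was tested only because of the group where it was high, and its values are given as a description. The fitted log2 fold change was -5.80 with SE 1.62 (edgeR FDR 0.00911). Without the pool of SH replicate 1 it was -1.54 with SE 15.7 (edgeR FDR 0.0145), and with DESeq2 the adjusted p was 0.0975.

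Genes of cerebellar neurons, chosen after the values of *Gabra6* were seen, were high in the same libraries. *Fat2* and *Cbln3*, of cerebellar granule cells, and *Pcp2*, of Purkinje cells, measured 5.86, 6.60 and 2.72 CPM in ventral SH replicate 1. They measured 3.22, 4.19 and 0.893 CPM in ventral EE replicate 1, and 1.96, 1.45 and 0.196 CPM in ventral EE replicate 3. In the other 15 samples *Fat2* reached at most 0.539, *Cbln3* at most 0.551 and *Pcp2* at most 0.118 CPM. The part of cerebellar RNA in the difference of *Gabra6* was not tested. With these 3 pools left out in both regions, *Gabra6* was below the count limit, the other 8 called genes stayed past both limits, and *Gabrg3* passed them as well (log2 fold change -0.27, edgeR FDR 0.00637), so that the count was again 9.

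**Figure D3:**
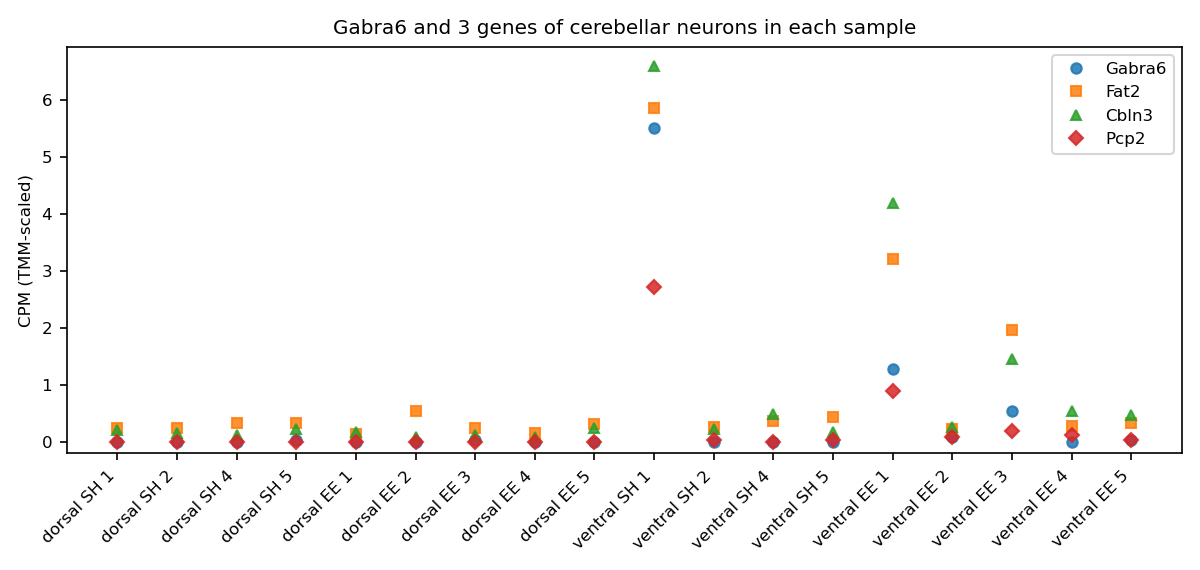
Level in CPM (vertical axis) of *Gabra6* and of the cerebellar genes *Fat2*, *Cbln3* and *Pcp2* in each of the 18 samples (horizontal axis). All 4 stand highest in ventral SH replicate 1 (5.51 CPM for *Gabra6*), then in ventral EE replicate 1 (1.28 CPM) and ventral EE replicate 3 (0.549 CPM), and lie near 0 elsewhere.

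Levels can be compared between genes per length. In CPM per kilobase of effective transcript length (mean ± SD, n = 9 per region), the α subunit genes of the set above 1 CPM per kilobase followed in dorsal DG the order *Gabra5* (86.8 ± 3.25), *Gabra4* (64.4 ± 2.45), *Gabra2* (52.1 ± 3.92) and *Gabra3* (3.67 ± 0.232). In ventral DG *Gabra2* (59.2 ± 3.17) stood above *Gabra4* (53.2 ± 3.88), between *Gabra5* (91.4 ± 4.42) and *Gabra3* (8.60 ± 0.881). The dorsal samples of *Gabra4* (61.1 to 68.8) and *Gabra2* (42.8 to 56.0) did not overlap, while the ventral samples of *Gabra2* (55.0 to 63.6) and *Gabra4* (46.5 to 59.8) did. The δ gene *Gabrd* was at 31.4 ± 3.23 in dorsal and 18.5 ± 2.35 in ventral DG, above the γ genes *Gabrg1* and *Gabrg3* in both regions. *Gabrg1* was at 7.36 ± 0.473 and 11.6 ± 1.01, and *Gabrg3* at 1.84 ± 0.184 and 2.16 ± 0.150. These values rest on the deposited effective lengths, which follow the estimated mix of isoforms.

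**Figure D4:**
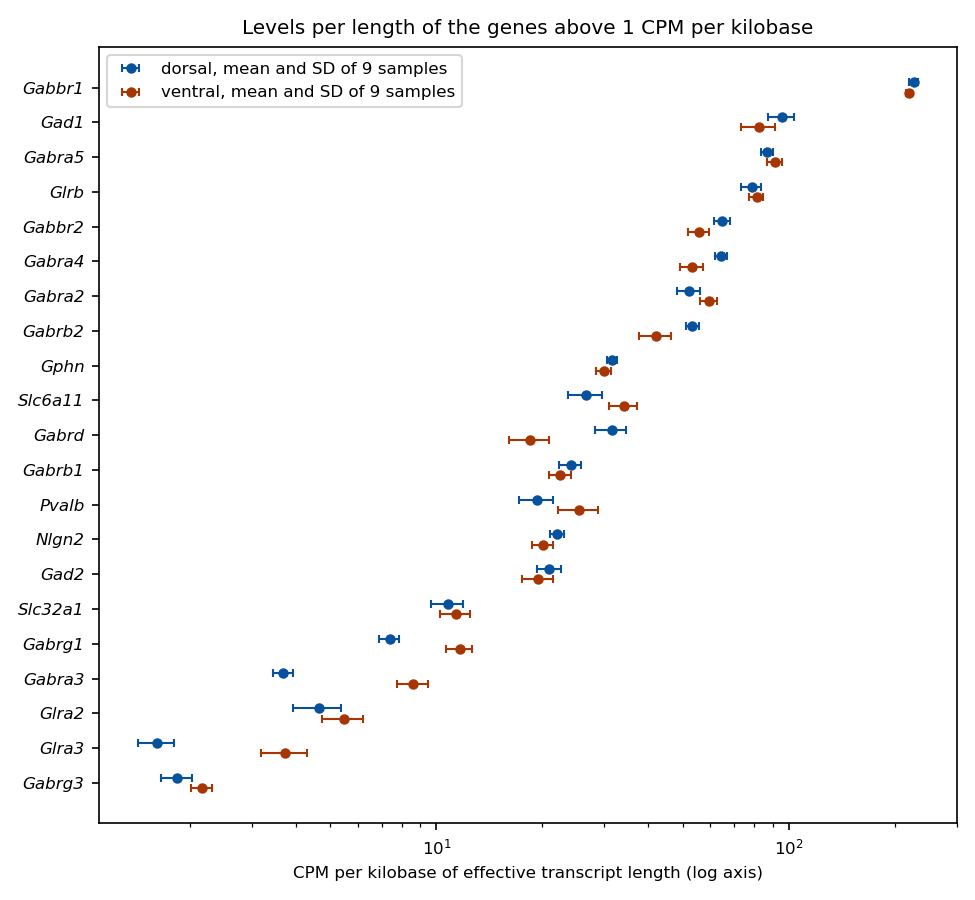
Level per length (CPM per kilobase, horizontal log axis) of the 21 genes above 1 CPM per kilobase, as mean and SD of the 9 dorsal (blue) and 9 ventral samples (brown). *Gabbr1* stands highest at 227 and 219 (dorsal and ventral), and *Glra3* and *Gabrg3* lowest. The regions are furthest apart for *Gabrd*, *Gabrg1*, *Gabra3* and *Glra3*.

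The GABA-B receptor differed little between the regions. Its obligate partners are *Gabbr1*, which binds GABA, and *Gabbr2*, which couples to the G protein. *Gabbr1*, the most abundant of the 26 genes per length, averaged 712 ± 20.1 CPM in dorsal against 690 ± 11.1 CPM in ventral DG (SD, n = 9 each, log2 fold change 0.04, SE 0.03, edgeR FDR 0.332). *Gabbr2* was at 355 ± 19.0 against 306 ± 21.3 CPM and was higher in dorsal DG in 9 of 9 pools (log2 fold change 0.21, SE 0.04, edgeR FDR 6.59e-04), within the 20% limit.

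Of the glycine receptor genes, *Glra3* was called. This α3 subunit gene measured 2.73, 2.92, 2.56 and 3.02 CPM in dorsal SH, 2.62, 3.44, 2.36, 2.61 and 3.01 CPM in dorsal EE, 5.97, 7.06, 7.54 and 6.83 CPM in ventral SH and 6.10, 5.48, 4.90, 7.88 and 6.78 CPM in ventral EE. The lowest ventral sample, EE replicate 3, stood above the highest dorsal one, EE replicate 2. The level was 2.32-fold higher in ventral DG (log2 fold change -1.22, SE 0.09, edgeR FDR 8.07e-10). *Glra2*, the α2 subunit gene known from the immature brain, was higher in ventral DG in 9 of 9 pools (13.9 ± 2.18 against 16.4 ± 2.18 CPM, log2 fold change -0.24, SE 0.05, edgeR FDR 0.00202), within the limit. *Glrb*, whose β subunit anchors the receptor at synapses, was at 215 ± 14.3 and 222 ± 10.2 CPM (log2 fold change -0.05, SE 0.04, edgeR FDR 0.557). Its level exceeded those of the α genes per length in both regions (78.5 ± 5.24 CPM per kilobase in dorsal DG, against 4.64 ± 0.728 for *Glra2* and 1.61 ± 0.186 for *Glra3*).

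Genes of GABA synthesis and vesicle loading were not called between regions. *Gad1* and *Gad2* encode the glutamic acid decarboxylases that make GABA, and *Slc32a1* the transporter that fills vesicles with it. *Gad1* measured 280, 250, 293 and 302 CPM in dorsal SH, 255, 236, 296, 285 and 284 CPM in dorsal EE, 206, 232, 257 and 271 CPM in ventral SH and 224, 197, 234, 260 and 264 CPM in ventral EE. The regions overlapped, yet dorsal DG had the higher value in 9 of 9 pools (log2 fold change 0.21, SE 0.06, edgeR FDR 0.0209). The FDR was 0.0606 without the pool of EE replicate 3 and 0.0508 without that of SH replicate 1. Without the 3 pools of the cerebellar transcripts, *Gad1* had a log2 fold change of 0.16 (edgeR FDR 0.305). With the pool fitted as a block its log2 fold change was 0.22 (edgeR FDR 1.65e-04). *Gad2* was at 110 ± 8.97 against 103 ± 10.3 CPM (log2 fold change 0.11, SE 0.06, 95% interval -0.01 to 0.22, edgeR FDR 0.283). *Slc32a1* was at 28.4 ± 2.98 against 29.9 ± 2.93 CPM (log2 fold change -0.07, SE 0.06, 95% interval -0.20 to 0.05, edgeR FDR 0.484). *Gad2* was higher in dorsal DG in 8 of 9 pools and *Slc32a1* higher in ventral DG in 7 of 9. None of these 3 genes was called in either direction, while the interneuron marker sum was higher in every ventral than in every dorsal sample. The part of interneurons in these levels was not tested.

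*Slc6a11*, the GABA transporter of astrocytes, was called higher in ventral DG. It measured 111, 120, 98.1 and 95.4 CPM in dorsal SH, 113, 119, 107, 89.2 and 92.7 CPM in dorsal EE, 132, 142, 115 and 126 CPM in ventral SH and 152, 148, 143, 125 and 127 CPM in ventral EE. The regions overlapped in SH and not in EE, and ventral DG was higher in 9 of 9 pools (1.27-fold, log2 fold change -0.35, SE 0.06, edgeR FDR 1.16e-04). Of the 9 astrocyte markers, 3 were called higher in ventral DG (beside 15.9% of all tested genes). In that direction 5 passed FDR under 0.05 (beside 26.3%). None passed as higher in dorsal DG, and the summed levels overlapped between the regions. The part of astrocytes in the difference of *Slc6a11* was not tested. *Pvalb*, the calcium buffer of fast-spiking interneurons, measured 13.6, 16.3, 14.1 and 13.2 CPM in dorsal SH, 17.5, 17.6, 15.9, 16.6 and 17.2 CPM in dorsal EE, 23.1, 19.1, 17.1 and 17.9 CPM in ventral SH and 23.0, 24.9, 22.8, 19.2 and 20.3 CPM in ventral EE. The regions did not overlap within SH or within EE, but did across housings. *Pvalb* was 1.32-fold higher in ventral DG (log2 fold change -0.41, SE 0.06, edgeR FDR 2.99e-05). Its log2 fold change was -0.34 without the pool of SH replicate 1. Without the 3 pools of the cerebellar transcripts it was -0.32 (SE 0.07, edgeR FDR 0.00650). The part of cerebellar RNA in the difference of *Pvalb* was not tested. Interneuron marker sums had the same direction. In the pool left out, SH replicate 3, the dorsal and ventral samples were nearly level for *Pvalb*, at 15.5 and 15.6 CPM, and *Gad1* was higher in the ventral sample, at 248 against 241 CPM.

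Proteins of the inhibitory synapse differed by less than 20%. *Gphn*, the gephyrin scaffold under GABA-A and glycine receptors, averaged 98.8 ± 3.26 CPM in dorsal against 93.6 ± 4.53 CPM in ventral DG (log2 fold change 0.07, SE 0.03, edgeR FDR 0.0988). *Nlgn2*, the adhesion protein of inhibitory synapses, was at 106 ± 4.99 against 96.6 ± 6.80 CPM (log2 fold change 0.14, SE 0.04, edgeR FDR 0.0113). Its FDR was 0.0780 without the pool of SH replicate 1 and 0.247 without the 3 pools of the cerebellar transcripts. With the pool fitted as a block it was 0.00271.

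For EE the call among these genes was *Glra2*, in dorsal DG. There 1 of the 22 genes was called for EE, beside 0.634% of all tested genes. That gene, *Glra2*, measured 15.2, 17.5, 15.4 and 15.7 CPM in dorsal SH and 12.7, 12.5, 10.7, 12.8 and 12.2 CPM in dorsal EE. All dorsal EE samples lay below all dorsal SH samples, as 1 of the 22 genes did (3.99% of all tested genes had no overlap in either direction). *Glra2* fell by 0.39 on the log2 scale (SE 0.08, edgeR FDR 0.0149), a 1.31-fold difference. The call was lost without the pool of SH replicate 2 (log2 fold change -0.34, edgeR FDR 0.0926) or SH replicate 5 (log2 fold change -0.39, edgeR FDR 0.0549), and without the 3 pools of the cerebellar transcripts (log2 fold change -0.37, edgeR FDR 0.112). The fold thus changed little while the test no longer passed.

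In ventral DG *Glra2* measured 18.4, 18.7, 17.9 and 17.6 CPM in SH and 14.1, 14.3, 12.7, 16.3 and 17.3 CPM in EE. Here too the groups did not overlap (1 of 22 genes, beside 2.45% of all tested genes), but the difference did not pass after adjustment (log2 fold change -0.28, SE 0.08, unadjusted p = 0.00112, edgeR FDR 0.173). Without the 3 pools of the cerebellar transcripts it was smaller, at -0.18 (SE 0.08, edgeR FDR 0.964). The difference between the 2 EE effects was -0.10 on the log2 scale (edgeR's unadjusted p = 0.352). By edgeR and by DESeq2, 0 of the 22 genes were called for EE in ventral DG, beside 0.241% of all tested genes, and 0 for the difference of the EE effects, beside 0.00587%.

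At an unadjusted p under 0.05 in edgeR, 2 of the 22 genes differed by EE in dorsal DG (*Glra2* and *Pvalb*, beside 8.81% of all tested genes), 3 in ventral DG (*Glra2*, *Pvalb* and *Gabra5*, beside 7.58%) and 0 between the EE effects (beside 3.25%). *Pvalb* had log2 fold changes of 0.25 (SE 0.09, edgeR FDR 0.310) in dorsal and 0.19 (SE 0.08, edgeR FDR 0.624) in ventral DG, and SH and EE overlapped in both. *Gabra5* had -0.10 (SE 0.04, edgeR FDR 0.610) in ventral DG. Across the 22 genes the median EE log2 fold change was -0.03 in dorsal and -0.04 in ventral DG, with 16 below 0 in each, against medians of -0.0034 and -0.00018 over all tested genes. Of the marker lists, only the interneuron list held a gene called for EE. *Npy*, named after its values were seen, rose from 30.7 ± 1.87 (SD, n = 4) to 46.6 ± 4.77 CPM (n = 5) in dorsal DG (log2 fold change 0.60, SE 0.07, edgeR FDR 4.00e-05) and from 27.2 ± 0.471 to 35.8 ± 2.98 CPM in ventral DG (log2 fold change 0.40, SE 0.07, edgeR FDR 0.00846).

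**Figure D5:**
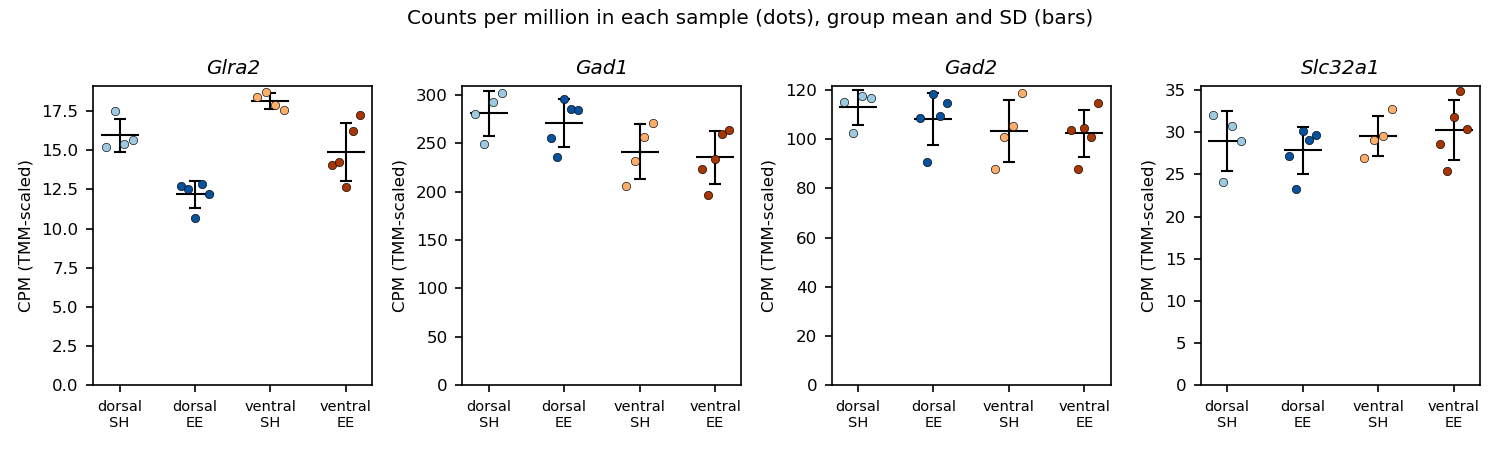
Level in CPM (vertical axis, from 0) of *Glra2*, *Gad1*, *Gad2* and *Slc32a1* in each sample of the 4 groups (dots), with the group mean and SD (bars). *Glra2* is lower in EE than in SH in both regions without overlap, while the genes of GABA synthesis and vesicle loading overlap between SH and EE.

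Other genes of the pathway, 42 in a list of transport, breakdown, chloride balance, receptor partners and the inhibitory synapse, were more often called higher in dorsal than in ventral DG. Of 36 tested, 11 were called higher in dorsal DG (beside 15% of all tested genes) and 2 in ventral DG (beside 15.9%), and 23 were not called, with a median log2 fold change of 0.12. Without the 20% limit, 18 passed FDR under 0.05 as higher in dorsal DG (beside 25.9%) and 7 in ventral DG (beside 26.3%). *Plcl1*, which binds GABA-A receptor subunits and acts in their trafficking, averaged 88.2 ± 4.11 CPM in dorsal against 48.1 ± 2.78 CPM in ventral DG (log2 fold change 0.88, SE 0.04, edgeR FDR 2.79e-14). *Kctd16*, an auxiliary subunit of the GABA-B receptor, was at 28.2 ± 1.72 against 19.1 ± 1.83 CPM (log2 fold change 0.56, SE 0.05, edgeR FDR 1.81e-08). The betaine and GABA transporter gene *Slc6a12* was also called but low (0.843 ± 0.179 against 0.469 ± 0.122 CPM, log2 fold change 0.82, SE 0.17, edgeR FDR 0.00102). In the other direction *Iqsec3*, which binds gephyrin at inhibitory synapses, was at 230 ± 21.1 against 362 ± 47.9 CPM (log2 fold change -0.64, SE 0.06, edgeR FDR 6.52e-08). None of the 36 was called for EE in either region or for the difference between the EE effects.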

How the data were processed

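RNA-Seq of dorsal and ventral DG of SH and EE mice was used. In the paper, 1 SH sample was dropped because it expressed *Xist*, with no replicate number named. SH replicate 3 was taken to be that pool, with 308 and 789 *Xist* counts against 0 to 16 in the other samples, and was left out in both regions. The methylation libraries were not used here.

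The authors aligned reads to mm10 with Gencode vM7 genes, and the submitters' processing notes name Trim Galore 0.4.0, STAR 2.5.1b and RSEM 1.2.30. The authors deposited raw counts of fragments per gene, of which those on the reverse strand were used. Fragments not assigned to a gene (32.6% to 40.9%) were left out. The expected count that RSEM gives, deposited by the authors, was rounded and used in an alternative. The TPM deposited by the authors served as a filter only, and the deposited effective lengths gave CPM per kilobase. Names and coordinates came from Gencode vM21 on the same build.

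edgeR 4.0.16 in R 4.3.3 (limma 3.58.1, DESeq2 1.42.0, Python 3.11.15, pandas 2.3.3, matplotlib 3.10.9) was run on genes that had over 10 counts in 2 or more samples, with TMM scaling and the 4 groups in 1 quasi-likelihood fit. The region test took the differences between dorsal and ventral DG jointly for both housings, and log2 fold changes and SE are of their mean. The procedure was tested on simulated data. Dorsal and ventral samples of a replicate number share a pool of mice. Their deviations from the group means correlated by -0.08 to 0.19, and those of SH and EE samples of a number by 0.08 to 0.18. No 2 samples were identical. Pools are the replicates. The main fit had no term for the pool, so its p values measure the spread between samples within the groups. The pool was fitted for the region tests only in the replicate block alternative.

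The genes and lists were chosen with earlier results of these data known. All 26 genes are named. For the pathway list, the rule for naming took up to 4 called genes with the largest region difference in each direction. Of each marker list it took the most abundant marker and the one with the largest difference. The rule also covers genes whose results are left out here. A list gene with no match in the tables (1 of 42) was left out. Alternatives were RLE size factors, no low-count filter, TPM over 1 in at least 3 samples, DESeq2, all 20 samples, the replicate block, unstranded counts, RSEM expected counts, no fold change limit, a 1-contrast region test, and leaving out each pool.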

Additional observations from a re-analysis of the deposited data

Results flagged for a closer look

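Within the 88 sets of 4 or 5 replicates tested, 10 held 1 sample far from the rest by Dixon's ratio, and chance alone gives about 1 in 20. In dorsal EE replicate 2, *Gabra2* was low at 209 CPM (others 248 to 259) and *Gphn* at 92.4 CPM (others 99.6 to 102). Dorsal SH replicate 2 was low in *Gabrb2* at 186 CPM (others 202 to 204) and high in *Gabrd* at 61.3 CPM (others 49.4 to 51.4). Ventral SH replicate 1 was low in *Gabrb1* at 197 CPM (others 226 to 230) and high in *Gabra6* at 5.51 CPM (others at 0). The latter also had the highest levels of cerebellar genes. Ventral EE replicate 4 was low in *Gabra3* at 22.0 CPM (others 29.9 to 31.2), and ventral EE replicate 2 was high in *Gabbr1* at 717 CPM (others 684 to 691). For *Gabra6*, dorsal SH replicate 5 (0.0372 CPM) and dorsal EE replicate 3 (0.0407 CPM) stood out by 1 count each.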

How the results depend on the processing

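No gene of the 22 changed direction between the regions under any of up to 18 alternatives. The 9 region calls became 15 with no fold change limit, 10 with no low-count filter, and 8 with DESeq2, with unstranded counts or with TPM over 1 in at least 3 samples. With 1 pool left out they were 8 to 9. The 1 EE call in dorsal DG (*Glra2*) became 0 to 1 with 1 pool left out, and 0 without the 3 pools whose ventral samples held cerebellar transcripts, an alternative chosen after seeing the data that leaves 6 pools. EE calls in ventral DG and calls of the difference between EE effects stayed at 0. With the replicate block the counts were 9 for region, 1 for EE in dorsal DG, 0 for EE in ventral DG and 0 for the difference. Over all genes the block moved the EE calls from 108 to 172 in dorsal and from 41 to 87 in ventral DG, and changed no call of the 22 genes. SH and EE samples of a number share no animals, and their deviations correlated by over 0.1 in 4 of 4 ventral pairs and 3 of 4 dorsal pairs (the lowest was 0.0815). Whether same-numbered SH and EE samples share another factor was not tested. The 10th gene called without the low-count filter was *Gabrq*, at 0 to 0.453 CPM. Depth limits *Gabra6*, *Gabre*, *Gabrq*, *Gabrr2* and *Glra1*, for which a difference was mostly not detectable at these counts, and the 4 pools of SH limit the EE tests. All 22 genes but *Gabra6* were at least at 2.36 CPM in every sample.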
